A study of Mustela putorius furo and Mus musculus with 4 samples.

Results

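The Wnt genes examined here are the secreted Wnt ligands, their Frizzled and Lrp receptors, the secreted Sfrp, Dkk and Wif1 modulators, the R-spondins with their Lgr receptors and the ubiquitin ligase Znrf3, and the beta-catenin regulators and Tcf/Lef factors inside the cell. Members were taken by gene symbol, as the symbols of these families that occur in both species. This gave 54 genes of the 13373 symbols shared by the ferret and the mouse. All 54 ferret matches had a mouse counterpart, whereas 6 of the 60 mouse matches had no ferret symbol.

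Expression was measured by RNA sequencing in primary astrocytes from the cerebral cortex of postnatal day 1 ferrets (Mustela putorius furo, 2 libraries) and of ICR mice taken on postnatal day 1 to 3 (2 libraries). Both cultures were grown as mixed glia in serum for 14 days, shaken to remove other cells, replated, and kept in serum-free medium with heparin-binding EGF-like growth factor before RNA was taken. Separate cultures for the duplicates are not stated in the labels or methods, so the tests below measure the spread between these libraries, which may be technical. Species, gene annotation and culture cannot be told apart in this design.

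Wnt proteins are lipid-modified signals that bind a Frizzled receptor together with Lrp5 or Lrp6. In the canonical branch this stops the destruction complex of Axin and Apc from degrading beta-catenin, which then acts with Tcf/Lef factors on target genes, while the non-canonical branch, typified by Wnt5a, acts on cell polarity and the cytoskeleton. In the developing brain, Wnt signals pattern the cortex, act on progenitor division and, through Wnt7a and Wnt7b, act on the growth of brain vessels.

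Values are given as FPKM, fragments scaled to exon length and to the fragments mapped in the library, so levels can be set side by side between genes. Differences are log2(FPKM + 1) in ferret minus mouse, a scale that understates the change of low genes. A gene was called higher or lower at an adjusted p under 0.05 (limma, adjusted over all 10204 genes tested) and an absolute log2 difference above 1. Of the 54 genes, 36 reached a mean of 1 FPKM in at least one species and were tested, 23 through both species, 7 through the ferret alone and 6 through the mouse alone. The last 13 had to be low in the other species, so part of their difference is set by the filter. Between 1130 and 1396 of the shared symbols stood at 0 in a library, among them Dut in both mouse libraries, which encodes an enzyme that cells use generally to keep uracil out of DNA. A value of 0 is therefore given as listed and is not read as absence of expression.

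The label of the cells was checked first. Gfap, an astrocyte filament protein, stood at 1481 and 1522 FPKM in ferret against 1429 and 1546 in mouse cultures. Slc1a3, a glutamate transporter, averaged 80.5 ± 5.50 FPKM in the ferret libraries against 181 ± 5.17 in the mouse ones (SD, n = 2 each), and Sox9, a glial transcription factor, had 17.6 ± 0.879 and 33.5 ± 1.25. The water channel gene Aqp4 had 23.3 ± 2.11 and 206 ± 5.96. The transporter gene Slc1a2 stood at 0.133 and 0.178 FPKM in ferret against 47.1 and 51.8 in mouse libraries. It passed the filter through the mouse alone. Of the 12 astrocyte markers, 8 were called lower in ferret, 1 was called higher and 3, Gfap among them, were not called. Of all genes tested, 30.1% were called lower and 13.1% higher. With the libraries brought to equal sums the marker counts were 6 lower and 2 higher, beside 21.7% and 19.1% of all genes. After quantile normalization they were 5 and 2, beside 20.4% and 20.4%. Their FPKM summed to 4774 and 4959 in ferret against 10435 and 11226 in mouse libraries. Most of the mouse sum came from Vim, the most abundant, and Apoe. Vim had 1187 and 1273 FPKM in ferret versus 4142 and 4381 in mouse. Aldoc went the other way, at 1619 and 1700 FPKM in ferret versus 916 and 1015 in mouse. Its log2 difference of 0.78 was not called, but was with equal library sums (1.17) and after quantile normalization (1.38). Apoe, a lipid carrier, differed most, at 11.8 and 12.3 FPKM in ferret versus 3035 and 3315 in mouse (log2 difference -7.93), Aldh1l1 (-2.95) and Ndrg2 (-2.89) were also lower, and S100b was the marker called higher (2.01). The label was thus met by Gfap, while Aqp4, Slc1a2, Aldh1l1, Ndrg2 and Apoe were called lower in ferret under each of these scalings.

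Markers of other cells differed between the cultures. The 10 microglial markers found in both species summed to 8.86 and 8.65 FPKM in ferret against 540 and 517 in mouse libraries, with Tyrobp as the most abundant and Cx3cr1 at 0 in both ferret libraries. All 10 were called lower in ferret, beside 30.1% of all genes tested. Cx3cr1 and Tyrobp, among others, passed the filter through the mouse alone and so had to be low in ferret. The 10 meningeal fibroblast and mural markers summed to 149 and 132 FPKM in ferret against 1797 and 1789 in mouse libraries, with Serpinf1 as the most abundant and Rgs5 at 0 in both ferret libraries. All 9 of them that were tested were called lower in ferret, again beside 30.1% of all genes. Serpinf1 was among those that passed the filter through the mouse alone. Of 7 endothelial markers, Cdh5 was the most abundant and, with Pecam1 and Tek, stood at 0 in both ferret libraries, while Cldn5 was at 0 in both mouse libraries. Their sum was 0.762 and 0.720 FPKM in ferret versus 25.3 and 25.8 in mouse. Cdh5 alone gave 22.0 and 22.5 FPKM of the mouse sum, while Pecam1 stood at 0.0407 and 0.0312 there. Vwf lay the other way, at 0.193 and 0.275 FPKM in ferret versus 0.128 and 0.137 in mouse. The 9 oligodendrocyte lineage markers summed to 169 and 188 FPKM in ferret against 69.0 and 69.0 in mouse libraries, and Cnp was the most abundant. Cnp itself was not called (log2 difference 0.87). Olig2, at 4.92 and 5.18 FPKM in ferret versus 9.62 and 9.80 in mouse (-0.82), and Cspg4 (-0.47) lay lower in ferret and were not called either. Of the 8 tested, 3 were called higher in ferret, beside 13.1% of all genes. Under either scaling 5 were called higher, Cnp included, beside 19.1% and 20.4% of all genes. They included Sox10, a transcription factor of the lineage, at 26.3 and 30.9 FPKM in ferret versus 0.231 and 0.304 in mouse (log2 difference 4.54), and the myelin gene Mbp, at 28.5 and 33.1 versus 2.95 and 1.78 (3.26). The 6 neuronal markers summed to 29.5 and 30.7 FPKM in ferret against 32.1 and 33.5 in mouse libraries, with Map2 the most abundant, and Map2 was not called (-0.68). The other 2 tested were called higher in ferret, Nefl at 4.42 and 5.68 FPKM in ferret versus 0.137 and 0.0917 in mouse (log2 difference 2.43) and Syt1 at a log2 difference of 1.46. Sox10 and Nefl passed the filter through the ferret alone and Cdh5 through the mouse alone, so each had to be low in the other species. The part of these cells in the Wnt differences was not tested. In RNA of whole cultures fewer cells of a type and less RNA per cell cannot be told apart.

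Of the 36 Wnt genes tested, 8 were called higher and 12 lower in ferret astrocytes. Among all 10204 genes tested, 43.2% were called, 13.1% higher and 30.1% lower. The 2 ferret libraries did not overlap the 2 mouse libraries for any of the 36 genes, which also held for 94.1% of all genes tested, so lack of overlap does not set the Wnt genes apart. Their median log2 difference was -0.46, beside -0.35 over all genes tested. With all libraries brought to equal sums of the shared symbols (rescaling below), the median of all genes moved to -0.01 and that of the Wnt genes to -0.11, and 12 Wnt genes were called higher and 10 lower, beside 19.1% and 21.7% of all genes. The share of higher calls among the called Wnt genes thus moved from 40.0% to 54.5%. Over all genes it rose as well, from 1336 of 4405 calls to 1954 of 4169. Quantile normalization also gave 12 and 10 calls, beside 20.4% and 20.4% of all genes. A pseudocount of 0.1 gave 9 and 16, beside 15.5% and 33.6%. A gene called lower shares the direction of every lower sum, so a match with the marker sums above says nothing about these genes. The part of other cells in these calls was not tested.

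**Figure D1:**
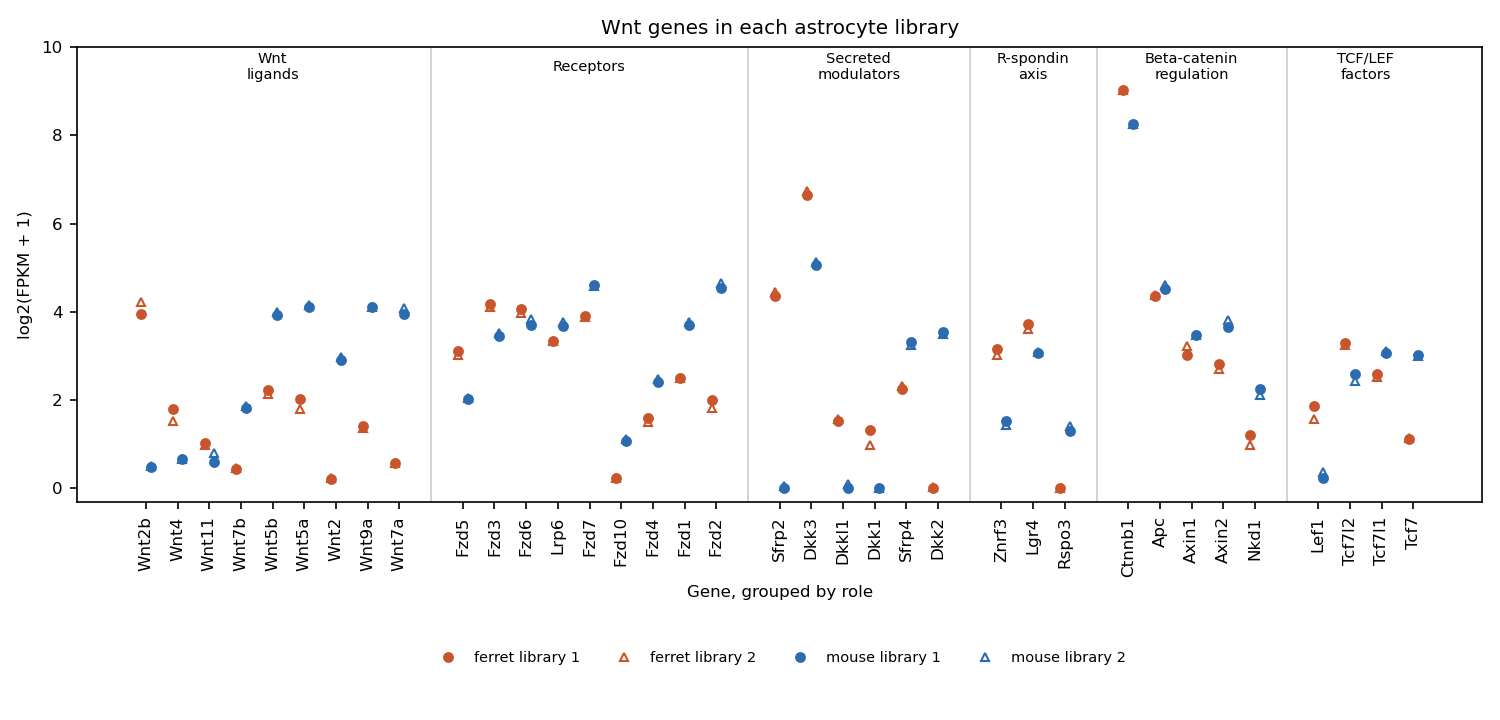
Level of the 36 tested Wnt genes as log2(FPKM + 1) on the vertical axis, with each library as a point (ferret in orange, mouse in blue; filled circles for replicate 1, open triangles for replicate 2) and genes grouped by role. Duplicates lie close together, and the ferret and mouse points of a gene do not overlap.

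Different ligands led in ferret and in mouse astrocytes. Wnt2b made up most of the Wnt ligand FPKM in ferret astrocytes, whereas mouse astrocytes spread theirs over Wnt5a, Wnt9a, Wnt7a and Wnt5b. Of the 19 ligand genes 9 were tested, of which 1 was called higher in ferret and 6 lower, beside 13.1% and 30.1% of all genes. Wnt2b passed the filter through the ferret alone, and Wnt2, Wnt7a and Wnt7b, which are 3 of the 6 lower calls, through the mouse alone. The summed ligand FPKM was 27.8 and 29.6 in the ferret and 73.4 and 76.6 in the mouse libraries, 2.61 times as much in the mouse, or 1.99 times after rescaling to the same library sums.

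Wnt2b, a ligand of the canonical branch, was at 14.4 and 17.6 FPKM in ferret against 0.411 and 0.421 in mouse cultures. Every ferret value was far above both mouse values, although the ferret duplicates differed from each other more than the mouse ones did. The log2 difference was 3.58 (standard error, SE, 0.097, adjusted p = 4.86e-10), and the mean FPKM was 38.4 times as high in ferret. Wnt2b held 51.7% and 59.3% of the summed ligand FPKM in ferret against 0.560% and 0.549% in mouse. It ranked first of the 19 ligands in ferret and at position 11 in mouse. Within each library, 74.9% and 78.4% of the shared symbols lay below it in ferret and 23.4% and 23.4% in mouse. In the GRCm38 build, mouse Wnt2b spans bases 104945272 to 104961921 of chromosome 3 (minus strand, 5 exonic regions).

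Wnt7a, known for its action on synapses and brain vessels, stood at 0.496 and 0.481 FPKM in ferret against 14.4 and 15.9 in mouse cultures. The fall to below 1 FPKM in ferret gave a log2 difference of -3.44 (SE 0.079, adjusted p = 1.79e-10). Its close relative Wnt7b stood at 0.358 and 0.388 FPKM in ferret versus 2.54 and 2.65 in mouse, with a log2 difference of -1.39 (adjusted p = 6.00e-08). Both Wnt7 genes were thus low in ferret astrocytes. Mouse Wnt7a spans bases 91363981 to 91411363 of chromosome 6 on the minus strand, with 4 exonic regions.

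Wnt5a, the typical ligand of the non-canonical branch, had 3.08 and 2.49 FPKM in ferret against 16.4 and 16.7 in mouse cultures (log2 difference -2.22, SE 0.087, adjusted p = 5.44e-09). Its paralog Wnt5b had 3.71 and 3.44 FPKM in ferret versus 14.2 and 15.0 in mouse (log2 difference -1.77, adjusted p = 7.84e-09). Both remained measurable in ferret astrocytes and, after Wnt2b, were the next most abundant ligands there. Wnt9a had 1.66 and 1.58 FPKM in ferret versus 16.2 and 16.3 in mouse (log2 difference -2.72, adjusted p = 4.05e-10). Wnt2 had 0.165 and 0.187 FPKM in ferret versus 6.53 and 6.87 in mouse (log2 difference -2.71, adjusted p = 6.10e-10). Wnt2 and Wnt2b, which are paralogs, therefore went opposite ways, with mean FPKM 38.1 times as high in mouse for the former.

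Wnt4 and Wnt11 were the other ligands tested. Wnt4 had 2.48 and 1.89 FPKM in ferret versus 0.594 and 0.593 in mouse, a log2 difference of 0.99 that lay just under the limit for a call (adjusted p = 5.41e-06). It was called after rescaling (1.20), after quantile normalization (1.32), with a pseudocount of 0.1 (1.71) and without ferret replicate 2 (1.13). Wnt11 was not called, with 1.04 and 0.972 FPKM in ferret versus 0.514 and 0.733 in mouse (log2 difference 0.31, adjusted p = 0.00800).

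The other 10 ligand genes were at or below 0.636 FPKM in every library. Wnt3a and Wnt9b were listed at 0 in all 4 libraries. Wnt16 had 0.569 and 0.636 FPKM in mouse, and 0 and 0.0263 in ferret. Wnt10b had 0.539 and 0.293 in mouse, and 0.0328 and 0.103 in ferret. In the opposite direction, Wnt8b had 0.198 and 0.271 FPKM in ferret and was listed at 0 in both mouse libraries. The remaining members of this group, Wnt1, Wnt3, Wnt6, Wnt8a and Wnt10a, reached at most 0.243 FPKM, and at such levels an FPKM without counts carries no interval.

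**Figure D2:**
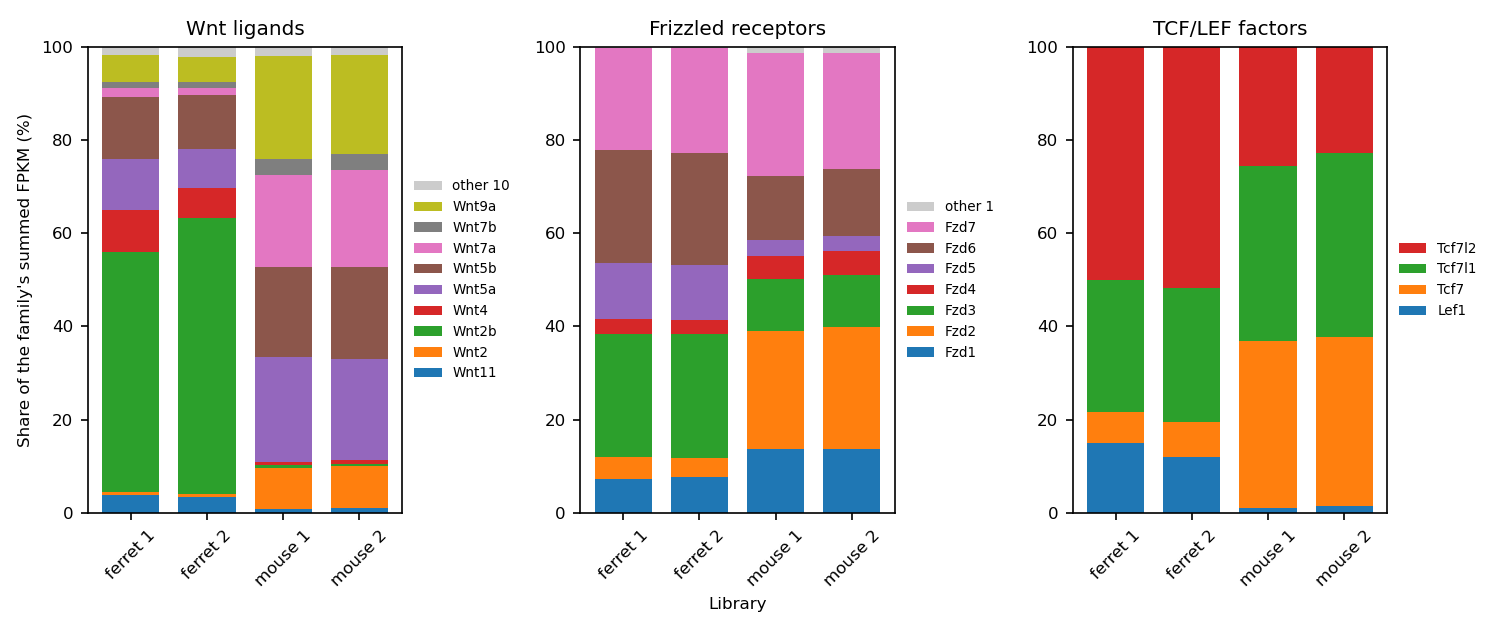
Share of each gene in the summed FPKM of its family (vertical axis, in percent) for the 4 libraries, shown for the Wnt ligands, the Frizzled receptors and the Tcf/Lef factors, with genes under 3% in every library pooled. Wnt2b fills 51.7% and 59.3% of the ligand bars in ferret, Frizzled 2 fills 25.3% and 26.1% of the receptor bars in mouse, and Tcf7 fills 36.0% and 36.2% of the Tcf/Lef bars in mouse.

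All 8 Frizzled genes in both species were tested, and their FPKM summed to 64.2 and 61.0 in the ferret and to 87.9 and 92.3 in the mouse libraries, 1.44 times as much in the mouse, or 1.10 times after rescaling to the same sums. Fzd2 and Fzd1 were called lower and Fzd5 higher in ferret, and 5 were not called, beside 43.2% of all genes called. Fzd2, a receptor for both branches, had 3.02 and 2.56 FPKM in ferret against 22.3 and 24.0 in mouse cultures. This was the largest difference among the receptors, at a log2 value of -2.67 (SE 0.083, adjusted p = 1.10e-09). It took Fzd2 from 25.3% and 26.1% of the Frizzled total in the mouse libraries, where it and Fzd7 led, to 4.71% and 4.19% in the ferret libraries. The mouse gene is a single exonic region on chromosome 11 from 102604396 to 102608058 on the plus strand.

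Fzd3, which acts in axon guidance and planar polarity, led the family in ferret. It had 17.0 and 16.2 FPKM in ferret against 9.98 and 10.4 in mouse cultures, a share of 26.5% and 26.6% in ferret against 11.4% and 11.3% in mouse. Its log2 difference of 0.65 (adjusted p = 6.66e-06) was not called, but reached 1.02 after rescaling and 1.07 after quantile normalization. Fzd5 had 7.66 and 7.13 FPKM in ferret versus 3.05 and 3.14 in mouse (log2 difference 1.04, adjusted p = 5.00e-07), and without ferret replicate 1 the difference of 0.99 was no longer called. Fzd1 had 4.66 and 4.67 FPKM in ferret versus 11.9 and 12.7 in mouse (log2 difference -1.23, adjusted p = 8.63e-08), and the call was lost after rescaling (-0.89) and after quantile normalization (-0.82). Of the 3 receptor calls, that of Fzd2 alone was therefore kept under both scalings and with each library left out.

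The remaining Frizzled genes were not called. Fzd6, with 15.6 and 14.6 FPKM in ferret versus 12.0 and 13.2 in mouse, and Fzd7, with 14.0 and 13.8 against 23.3 and 23.0, were among the 3 highest of the family in both species. Fzd4 was lower in ferret, at 2.01 and 1.83 against 4.30 and 4.61 FPKM, with a log2 difference of -0.90 short of a call. Fzd10 had 0.188 and 0.176 FPKM in ferret versus 1.12 and 1.16 in mouse, with a log2 difference of -0.86. Both were called lower in ferret with a pseudocount of 0.1, at -1.17 and -2.14. The coreceptor gene Lrp6 had 9.12 and 9.08 FPKM in ferret versus 11.9 and 12.6 in mouse, a log2 difference of -0.39 that moved to -0.03 after rescaling and 0.031 after quantile normalization.

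Of the 6 secreted modulators tested, 4 were called higher in ferret and 1 lower, beside 13.1% and 30.1% of all genes. Of the 4, Sfrp2, Dkk1 and Dkkl1 passed the filter through the ferret alone and so had to be low in mouse, as Dkk2, the lower call, had to be low in ferret. Sfrp proteins bind Wnt ligands outside the cell and Dkk1, Dkk2 and Dkk4 bind the Lrp coreceptors. Sfrp2 stood at 19.4 and 21.0 FPKM in ferret against 0 and 0.0398 in mouse cultures. The gene was thus well measured in both ferret libraries and close to 0 in both mouse libraries, with a log2 difference of 4.38 (SE 0.078, adjusted p = 4.51e-11), the largest of the 36 genes. Mouse Sfrp2 spans bases 83766321 to 83774316 of chromosome 3 on the plus strand with 5 exonic regions, and shares exonic bases with the antisense gene Gm26771.

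Dkk2 went the other way. It had 0.0107 and 0.0252 FPKM in ferret against 10.6 and 10.3 in mouse cultures, giving a log2 difference of -3.49 (SE 0.075, adjusted p = 1.23e-10). Mouse Dkk2 spans bases 132085292 to 132180304 of chromosome 3 on the plus strand. Sfrp2 and Dkk2 were therefore each close to 0 in one species, and their shares of the summed Dkk and Sfrp FPKM were 15.4% and 15.6% for Sfrp2 in ferret and 20.3% and 19.2% for Dkk2 in mouse libraries.

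Dkk3, a divergent member of its family that does not act on Lrp in the manner of Dkk1, was the most abundant modulator in both species. It had 98.5 and 105.3 FPKM in ferret against 32.6 and 34.3 in mouse cultures (log2 difference 1.58, SE 0.062, adjusted p = 5.43e-09). Dkk3 held between 62.4% and 78.5% of the summed Dkk and Sfrp FPKM in each library. That sum, over 8 genes, was 126 and 134 FPKM in the ferret and 52.2 and 53.4 in the mouse libraries.

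Dkk1, the classical Lrp antagonist, was low in both species. It had 1.52 and 0.989 FPKM in ferret against 0.0130 and 0 in mouse cultures (log2 difference 1.15, adjusted p = 4.09e-06), and without ferret replicate 1 the difference of 0.98 was not called. The Dkk-like gene Dkkl1 had 1.87 and 2.00 FPKM in ferret versus 0 and 0.0732 in mouse (log2 difference 1.50, adjusted p = 4.96e-08). Both reached the filter through the ferret alone. Sfrp4 had 3.78 and 3.97 FPKM in ferret versus 8.90 and 8.55 in mouse. Its log2 difference of -0.996, just inside the limit, was not called (adjusted p = 5.13e-07), and was called without ferret replicate 2, without mouse replicate 2 and with a pseudocount of 0.1, at -1.02, -1.02 and -1.15. The scarce modulators Sfrp5, Wif1 and Dkk4 were not tested. Sfrp5 had 0.979 and 0.944 FPKM in ferret versus 0.101 and 0.197 in mouse, Wif1, which binds Wnt ligands, had 0.101 and 0.0732 against 0.537 and 0.731, and Dkk4 did not exceed 0.0463.

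The R-spondins bind Lgr4, Lgr5 or Lgr6 and thereby keep the ubiquitin ligases Znrf3 and Rnf43 from removing Frizzled receptors. Rspo3 was listed at 0 in both ferret libraries and had 1.45 and 1.65 FPKM in the mouse libraries, a called difference of -1.35 (adjusted p = 1.02e-07) in a gene that passed the filter through the mouse alone. Rspo2 lay below the filter, at 0.110 and 0.107 FPKM in ferret versus 0.863 and 0.843 in mouse, and Rspo1 likewise, at 0.0221 and 0.0519 against 0.187 and 0.240. Rspo4 alone among the 4 was listed at 0 in mouse, with 0.185 and 0.140 FPKM in ferret. No R-spondin gene was listed above 1.65 FPKM in any library.

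Znrf3, which removes Frizzled receptors from the cell surface and is itself a target of the pathway, was higher in ferret. It had 7.96 and 7.09 FPKM in ferret against 1.87 and 1.71 in mouse cultures, with a log2 difference of 1.61 (SE 0.083, adjusted p = 3.77e-08). Lgr4 supplied at least 94.2% of the summed FPKM of the 3 Lgr genes in every library. It had 12.2 and 11.1 FPKM in ferret versus 7.36 and 7.58 in mouse, a log2 difference of 0.58 that was not called (adjusted p = 3.40e-05). Lgr5, at most 0.0675 FPKM, and Lgr6, at most 0.454 FPKM, were not tested.

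**Figure D3:**
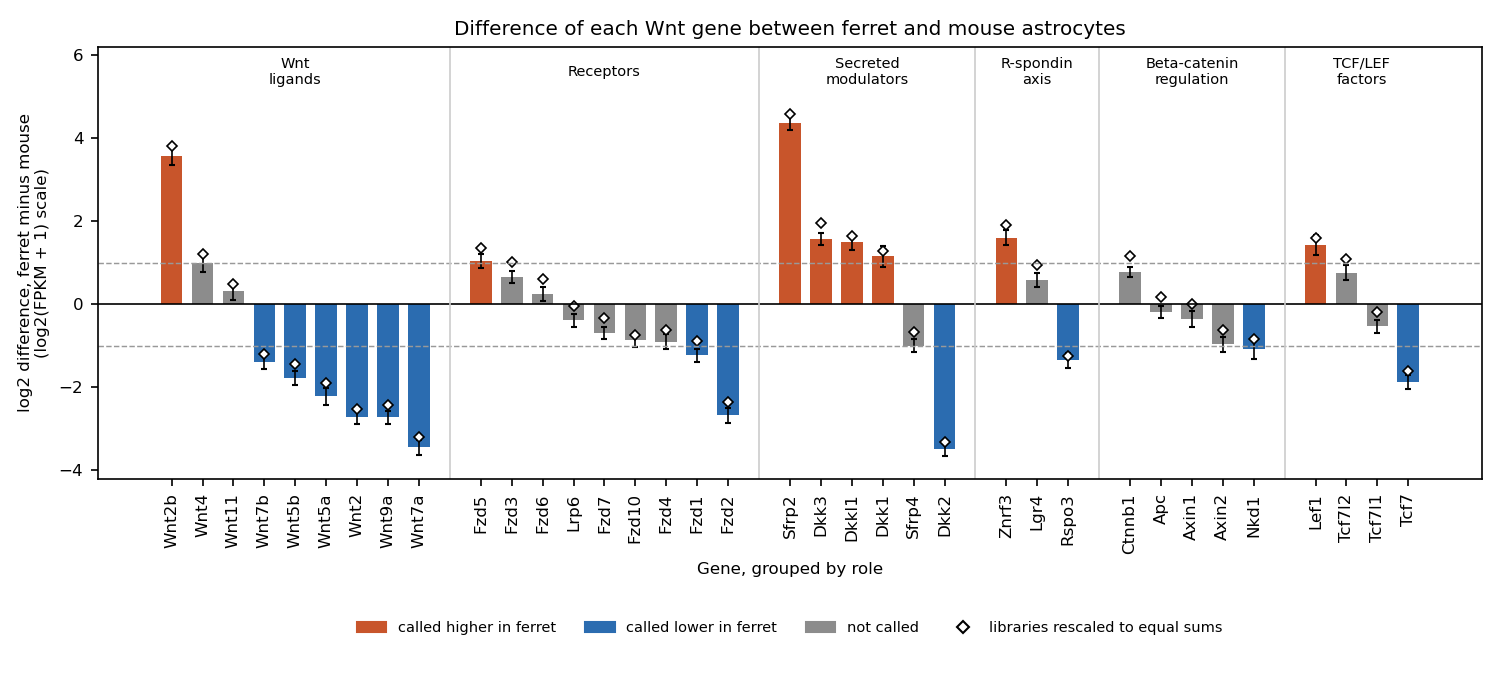
Difference of the 36 tested Wnt genes between ferret and mouse astrocytes on the log2(FPKM + 1) scale (vertical axis, ferret minus mouse), with 95% intervals from limma and genes grouped by role. Bars are coloured by call, dashed lines mark the limit of 1, and diamonds give the difference after rescaling the libraries to equal sums; Sfrp2 (4.38) and Wnt2b (3.58) stand highest, and Dkk2 (-3.49) and Wnt7a (-3.44) lowest.

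Of beta-catenin and its regulators, all 5 tested through both species, 1 was called lower, 0 were called higher and 4 were not called, beside 43.2% of all genes called. Ctnnb1, which encodes beta-catenin, was by far the most abundant Wnt gene, at 522 and 520 FPKM in ferret against 303 and 304 in mouse cultures. It supplied 63.5% and 63.1% of the summed FPKM of the 54 genes in ferret and 49.8% and 49.0% in mouse. Beta-catenin also links cadherins to the cytoskeleton, so its level belongs to adhesion as well as to signalling. The log2 difference of 0.78 (SE 0.057, adjusted p = 5.56e-07) was not called, but reached 1.17 after rescaling and 1.04 after quantile normalization. Mouse Ctnnb1 spans bases 120929216 to 120960507 of chromosome 9 on the plus strand and shares exonic bases with Ulk4 on the other strand.

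Apc and Axin1, the scaffolds of the destruction complex, were not called. Apc had 19.5 and 19.7 FPKM in ferret versus 21.9 and 23.3 in mouse, and its log2 difference of -0.19 (adjusted p = 0.0153) turned to 0.18 after rescaling and 0.20 after quantile normalization. Axin1 had 7.07 and 8.33 FPKM in ferret versus 10.1 and 10.1 in mouse, and its difference of -0.35 (adjusted p = 0.00254) turned to 0.076 after quantile normalization. Both differences were smaller than, or near, the shift of the median of all genes that these scalings make, from -0.35 to -0.01 and 0.05.

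Axin2 and Nkd1 are inhibitors that the pathway itself switches on, and both are used as readouts of canonical signalling. Axin2 had 6.10 and 5.57 FPKM in ferret against 11.7 and 13.0 in mouse cultures (log2 difference -0.96, SE 0.080, adjusted p = 1.36e-06), just short of a call. It was called without ferret replicate 1 (-1.02), without mouse replicate 1 (-1.03) and with a pseudocount of 0.1 (-1.07), and stood at -0.61 after rescaling. Nkd1 had 1.32 and 0.977 FPKM in ferret versus 3.79 and 3.31 in mouse (log2 difference -1.08, adjusted p = 2.89e-06). Its call was lost after rescaling (-0.83), after quantile normalization (-0.66) and without ferret replicate 2 (-0.97).

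The 4 Tcf/Lef factors carry beta-catenin to DNA, and their makeup differed between the species while their sum did not differ much. The sum was 17.8 and 16.6 FPKM in the ferret and 19.8 and 19.5 in the mouse libraries, 1.14 times as much in the mouse. After rescaling its direction turned, with means of 19.9 in ferret and 17.3 in mouse (0.869 times). Tcf7 had 1.18 and 1.22 FPKM in ferret against 7.11 and 7.05 in mouse cultures, giving a log2 difference of -1.88 (SE 0.074, adjusted p = 5.63e-09). Lef1 went the other way, with 2.67 and 2.00 FPKM in ferret versus 0.185 and 0.291 in mouse (log2 difference 1.42, SE 0.106, adjusted p = 6.00e-07), and passed the filter through the ferret alone, so that it had to be low in mouse. Tcf7 therefore took 36.0% and 36.2% of the family's FPKM in mouse and 6.62% and 7.37% in ferret libraries, and Lef1 took 15.0% and 12.0% in ferret and 0.936% and 1.50% in mouse libraries. Tcf7l2, the factor most linked to glial differentiation, ranked first in ferret and at position 3 in mouse, at 8.89 and 8.57 against 5.03 and 4.44 FPKM, and its log2 difference of 0.76 was called only after rescaling (1.10) and quantile normalization (1.18). Tcf7l1, which mostly acts as a repressor, had 5.05 and 4.79 FPKM in ferret versus 7.45 and 7.67 in mouse (log2 difference -0.53), and was not called. The mouse genes lie on chromosome 11 from 52252371 to 52283014 (Tcf7, minus strand) and on chromosome 3 from 131110471 to 131224356 (Lef1, plus strand), and Lef1 shares exonic bases with an antisense gene.

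In the mouse annotation, 11 of the 54 genes share exonic bases with another gene, and since the use of strand in quantification is not given, reads in the shared bases, 3.15% (Fzd6) to 17.8% (Fzd5) of a gene's exonic bases, cannot be told from those of the partner. They are Axin2, Ctnnb1, Fzd5, Fzd6, Lef1, Rspo3, Sfrp2, Tcf7l1, Wnt5a, Wnt7b and Wnt11. Wnt2b, Wnt2, Wnt7a, Wnt9a, Dkk2, Dkk3, Fzd2, Tcf7 and Znrf3 had no such overlap.

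Other genes of the pathway, 62 in both species, of which 54 were tested, were taken from lists made by role. Of these, 6 were called higher and 18 lower in ferret, with a median log2 difference of -0.45 beside -0.35 over all genes. With 13.1% of all genes called higher and 30.1% lower, these counts lie near the background, against which those of each list below are also to be read. Among the lower calls, Ror1, Gpc3 and Trabd2b passed the filter through the mouse alone. They had to be low in ferret, so part of their difference is set by the filter. After rescaling, 9 were called higher and 11 lower, beside 19.1% and 21.7% of all genes, and all 6 higher calls and 11 of the lower calls were shared with the values as deposited.

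Of 3 genes that make, carry or inactivate Wnt ligands, 2 were called higher and 1 lower. Porcn, the enzyme that attaches the lipid to Wnt proteins, had 33.1 and 35.0 FPKM in ferret against 7.59 and 7.71 in mouse cultures (log2 difference 2.02, SE 0.064, adjusted p = 1.29e-09). Notum, a secreted enzyme that removes this lipid and so inactivates Wnt proteins, had 32.1 and 33.2 FPKM in ferret versus 2.27 and 2.39 in mouse (log2 difference 3.34, SE 0.068, adjusted p = 9.20e-11). The genes of the enzymes that add and remove the lipid were thus both higher in ferret astrocytes. Wls, the carrier that brings Wnt proteins to the cell surface, was abundant in both species, at 131 and 121 FPKM in ferret versus 281 and 297 in mouse. It was called lower in ferret (log2 difference -1.19, adjusted p = 4.94e-08), and this call was lost after rescaling (-0.80) and quantile normalization (-0.82). The mouse Notum gene shares 38.1% of its exonic bases with 2 antisense genes on chromosome 11, between 120653788 and 120661175.

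The list of coreceptor and planar polarity genes, which also holds the secreted ligand gene Ndp, had 15 genes. Of these, 14 were tested, 2 were called higher and 6 lower in ferret. This balance depended on the scaling. Ptk7 (0.72) and Prickle2 (0.76), not called here, were called higher after rescaling (1.09 and 1.08) and quantile normalization (1.11 and 1.19). Ndp (-1.28) and Tspan12 (-1.07) lost their lower calls after rescaling (-0.92 and -0.70) and quantile normalization (-0.87 and -0.66). Prickle1, a cytoplasmic polarity protein, had 22.6 and 22.7 FPKM in ferret versus 2.43 and 2.51 in mouse (log2 difference 2.77, adjusted p = 2.69e-10). Celsr1, an atypical cadherin of the same system, had 24.3 and 26.5 FPKM in ferret versus 3.03 and 3.21 in mouse (log2 difference 2.68, adjusted p = 5.24e-10). Ror1, a receptor for Wnt5a, had 0.426 ± 0.0299 FPKM in ferret and 4.06 ± 0.0904 in mouse (SD, n = 2) (log2 difference -1.83). Celsr2, the paralog of Celsr1, was called lower in ferret (-1.40, and -1.04 after rescaling, with the call lost after quantile normalization at -0.988), and the polarity genes Vangl1 (-0.90) and Vangl2 (-0.76) were not called. The glypicans Gpc3 and Gpc4, cell surface proteoglycans that bind Wnt proteins, were lower in ferret as well, with log2 differences of -3.27 and -2.43. Gpc4 remained at 28.7 and 25.8 FPKM in ferret against 148 and 153 in mouse libraries, and Gpc3 stood at 0.440 and 0.471 against 12.5 and 13.5.

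Of 8 other extracellular antagonists, 7 were in both species and 3 were tested, with 1 called higher and 2 lower in ferret. Sostdc1, which binds Lrp coreceptors and BMPs, had 11.8 and 9.28 FPKM in ferret versus 1.30 and 1.54 in mouse (log2 difference 2.25, adjusted p = 2.32e-08). Trabd2b, a protease that cleaves Wnt proteins, had 0.391 and 0.287 FPKM in ferret versus 6.93 and 7.52 in mouse (log2 difference -2.62, adjusted p = 1.24e-09). Kremen1, a Dkk receptor, was lower in ferret at a log2 difference of -1.27, and this call was lost after rescaling (-0.92).

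Of the 15 genes of the cytoplasmic relay tested, 0 were called higher, 4 lower and 11 not called, beside 13.1% and 30.1% of all genes called higher and lower. The called genes Daam2 and Daam1, formins that work with Dishevelled, had log2 differences of -2.43 and -2.40. Daam2 stood at 6.65 and 6.39 FPKM in ferret versus 39.2 and 40.0 in mouse. Apc2, the second Apc gene, was called lower as well (-1.54). The last of the 4 called genes, Csnk1d (-1.18), lost its call after rescaling (-0.80) and quantile normalization (-0.81). The kinase genes Gsk3b (28.4 ± 1.48 FPKM in ferret, 20.9 ± 0.907 in mouse, SD, n = 2) and Csnk1a1 (147 ± 3.94 and 130 ± 0.499, SD, n = 2), which phosphorylate beta-catenin, were not called, with log2 differences of 0.42 and 0.18. Of 10 nuclear cofactors tested, Tle3, a corepressor of Tcf/Lef factors, was the only call, at 4.43 and 5.05 FPKM in ferret versus 41.9 and 41.2 in mouse (log2 difference -2.89, adjusted p = 2.96e-10). The coactivator gene Ep300 was among the 9 not called (log2 difference 0.39). Of these 9, Tle4 (0.71) was called higher after rescaling (1.05) and after quantile normalization (1.12). Pygo1 (0.68) and Crebbp (0.61) were called higher after quantile normalization alone, at 1.10 and 1.04. The lower call of Tle3 was kept under both scalings.

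**Figure D4:**
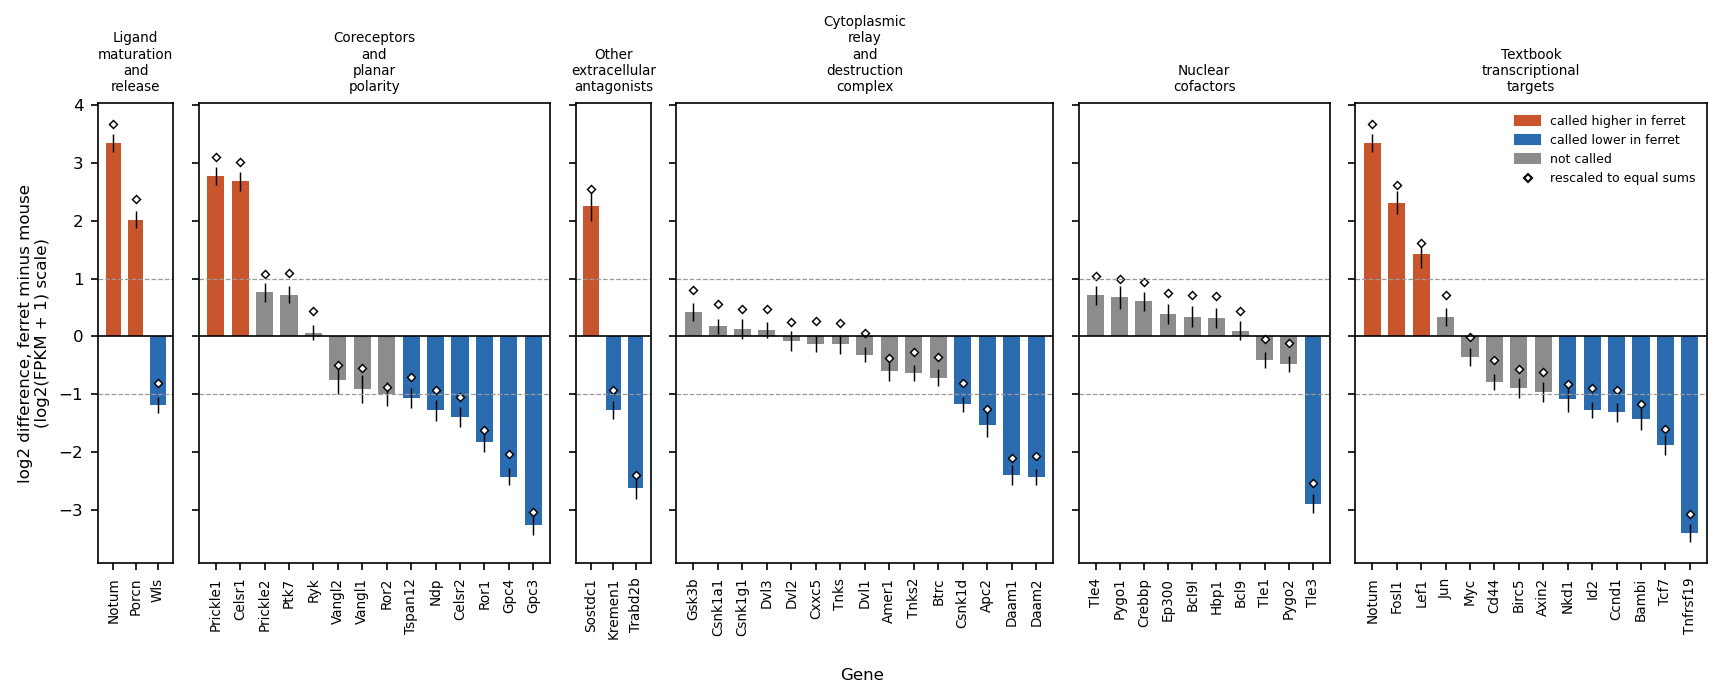
Difference of the tested genes of 6 lists of the Wnt pathway between ferret and mouse astrocytes on the log2(FPKM + 1) scale (vertical axis, ferret minus mouse), with 95% intervals from limma, bars coloured by call and diamonds for values after rescaling the libraries to equal sums. Notum (3.34) and Prickle1 (2.77) stand highest, Tnfrsf19 (-3.40) and Gpc3 (-3.27) lowest, and most cytoplasmic and nuclear genes lie inside the limit of 1.

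Of 15 textbook targets of beta-catenin, 14 were tested, with 3 called higher, 6 lower and 5 not called, beside 13.1% of all genes called higher and 30.1% lower, and 4 of these 14 (Axin2, Nkd1, Tcf7 and Lef1) are also described above. The higher genes were Notum, Lef1 and Fosl1, an AP-1 subunit at 12.0 and 12.9 FPKM in ferret versus 1.52 and 1.90 in mouse (log2 difference 2.31, adjusted p = 4.82e-09), of whose mouse exonic bases 57.2% are shared with a gene on the other strand. Tnfrsf19, a receptor also called Troy, was the lowest in ferret, at 2.46 and 2.39 FPKM against 33.8 and 36.5 (log2 difference -3.40, adjusted p = 1.02e-10), and Bambi, a decoy receptor for BMP signals, followed after Tcf7 with a log2 difference of -1.43 (1.19 and 1.44 against 5.15 and 5.36 FPKM). The cyclin gene Ccnd1, named after its values were seen, had 138 and 159 FPKM in ferret versus 362 and 377 in mouse. Its called log2 difference of -1.31 fell to -0.92 after rescaling and -0.97 after quantile normalization, and was then not called. Id2 (-1.28) lost its lower call in the same way, at -0.89 and -0.94, as did Nkd1, at -0.83 and -0.66. The lower calls of Tnfrsf19, Bambi and Tcf7 and the 3 higher calls were kept under both scalings. Myc had 6.79 and 6.40 FPKM in ferret versus 8.73 and 8.78 in mouse, and its difference of -0.36 was -0.01 after rescaling and 0.063 after quantile normalization. Jun, with 48.7 and 55.2 FPKM in ferret versus 40.4 and 41.6 in mouse, was not called (0.33).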

How the data were processed

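RNA of cultured ferret astrocytes (2 libraries) and mouse astrocytes (2 libraries) was sequenced as stranded, polyA-selected libraries. The authors aligned the reads with STAR 2.7.0f and deposited FPKM per gene from Cufflinks 2.2.1, each species on its own Ensembl annotation (MusPutFur1.0 and GRCm38). These values are normalized to the mapped fragments and exon length, hold no read counts, and the depth of a library is unknown from them. The lowest FPKM steps give the depth of replicate 1 over replicate 2 as 1.17 for ferret and 0.835 for mouse astrocytes. Whether quantification used the strand is not given in the sources used here.

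Symbols were matched without regard to case. Of the 13373 shared symbols, 7 ferret and 13 mouse symbols had several rows, of which the one with the highest mean was kept. No Wnt gene had several rows. Species were compared with limma 3.58.1 (R 4.3.3, empirical Bayes with a trend) on log2(FPKM + 1). Genes entered when either species averaged 1 FPKM or more, and p-values were Benjamini-Hochberg adjusted over all genes tested. Calls required both an adjusted p below 0.05 and a log2 difference beyond 1 in either direction. Intervals in figures are 95% limits from limma.

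Mouse positions are from GENCODE on GRCm38, in a release other than the authors' Ensembl annotation, and no ferret positions are given. Members, lists and tests were chosen with earlier results of these data known. Tested Wnt genes may be named with their values; of the other lists, at most the 3 largest called differences in each direction are named per list, with uncalled genes named as such, and of the markers the most abundant, those at 0 and a check of the astrocyte label. Ccnd1, Tspan12, Celsr2, Ndp, Id2, Csnk1d, Dut, Apoe, Aldh1l1, Ndrg2, S100b, Aldoc, Sox10, Mbp, Olig2, Cspg4, Nefl, Syt1 and Vwf lie outside this rule. They were named after their values were seen, as were the uncalled genes Ptk7, Prickle2, Tle4, Pygo1 and Crebbp. Alternatives were a pseudocount of 0.1, no filter, 2 other scalings, the replicate number as a block, no trend, summed rows, and each library left out in turn. Tables and figures were made with pandas 2.3.3 and matplotlib 3.10.9 in Python 3.11.15.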

Additional observations from a re-analysis of the deposited data

How the results depend on the processing

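The 8 Wnt genes called higher and 12 called lower in ferret were the same with the replicate number as a block (8 and 12), without a trend, with summed rows and without the filter on low values, and the block changed no call of the other pathway genes (over all genes it gave 1342 higher and 3072 lower, beside 1336 and 3069). The numbers come from the labels alone, and the duplicates of the species did not deviate together (r = 0.01 over 10204 genes). Leaving out each library gave 6 to 9 higher and 12 to 13 lower, medians of -0.49 to -0.43, and, for the other pathway genes, 6 higher and 17 to 20 lower, where Tspan12 lost its call without mouse replicate 2 (-0.97). With 1 library left in a species, its spread is taken from the other. The Wnt median of -0.46 moved to -0.11 after rescaling, -0.049 after quantile normalization and -0.10 without the filter, with all genes at -0.01, 0.05 and -0.11. The median of the other pathway genes, -0.45, moved to -0.078 and -0.047 under the 2 scalings, with 9 and 11 called higher and 11 and 10 lower. All 8 higher calls and 10 of the 12 lower calls of Wnt genes were kept under both scalings. Apc reversed to 0.18 and 0.20, and after quantile normalization Axin1 (0.076), Lrp6 (0.031) and Myc (0.063) also reversed. Of the other pathway genes not called, Dvl1 (-0.32) turned to 0.060 and 0.070, Dvl2 (-0.079) to 0.24 and 0.32, Tnks (-0.13) to 0.23 and 0.29, and Cxxc5 (-0.12) to 0.26 and 0.20 after rescaling and quantile normalization. The cause of these changes was not tested. A pseudocount of 0.1 gave 9 higher and 16 lower calls. The files used hold FPKM and no counts, and the counts that the study lists elsewhere were not used here, so genes under 1 FPKM are given as values only.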

Other observations

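Mouse values of 6 further Wnt genes had no ferret symbol to be set against. Sfrp1, a secreted Wnt-binding protein, had 20.6 and 20.9 FPKM in the mouse libraries, above Sfrp4, Dkk2 and every Wnt ligand there. The coreceptor gene Lrp5 had 12.4 and 12.8 FPKM, close to its paralog Lrp6 in the same libraries. Fzd8 had 4.27 and 4.55 FPKM and the inhibitor Nkd2 had 1.51 and 2.21, while Fzd9 (0.317 and 0.563) and the ubiquitin ligase Rnf43 (0.459 and 0.440) were scarce. The shares given for the mouse Frizzled and Sfrp families leave these genes out. Ferret levels of the 6 genes were not analysed here.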
